A study of Mus musculus with 6 samples.

Results

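The genes described here are Mlkl and 6 genes that act upstream of it in necroptosis, namely Ripk1, Ripk3, Zbp1, Casp8, Fadd and Cflar. They were taken by name from the 32285 genes of the count matrices, and each of the 7 matched 1 gene. They were followed in cells of mouse pancreatic tumours that were gated by markers as cancer cells, macrophages, neutrophils, T cells and dendritic cells.

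Necroptosis is a form of regulated cell death in which the cell membrane is ruptured and the cell contents are released. It is usually set off by death receptors or by the nucleic acid sensor ZBP1, which engage the kinases RIPK1 and RIPK3. RIPK3 phosphorylates the pseudokinase MLKL, which then forms oligomers that break the membrane. Caspase-8, its adaptor FADD and its partner cFLIP, the product of Cflar, cleave or restrain the RIP kinases and so hold this pathway in check. Transcript levels do not report phosphorylation or oligomers of these proteins.

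The tumours had grown for 4 weeks in the pancreas of C57BL/6 mice, which were 6 to 8 weeks old in the study, after injection of KPC cells. KPC cells are a mouse pancreatic cancer line that carries mutant Trp53 and Pdx1-Cre, and all groups share that background. They carried a vector (KPC-OE-Vector) or a construct that overexpresses mouse Mlkl (KPC-OE-MLKL), so that only the injected cancer cells and not the host cells hold the construct. Count matrices of OE-Vector replicate 1 and of OE-MLKL replicates 1, 2 and 3 were used, 1 tumour library each. The other OE-Vector tumours, replicates 2 and 3, were not analysed here. Group names are those on the labels. The sources used here do not say whether transcripts of the construct carry the 3′ end at which Mlkl is counted, so that the Mlkl count may not measure the construct.

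The libraries held 150591289 to 169978362 UMIs (molecular tags that count each captured transcript once) and 15382 to 23063 barcodes that were kept as cells. A cell was placed in a class when it had UMIs of at least 3 distinct markers of that class, at a share above that in free RNA, which was read from barcodes of 100 UMIs or fewer. This gave 14658 cancer-gated, 10777 macrophage-gated, 28175 neutrophil-gated, 3217 T cell-gated and 554 dendritic cell-gated cells. Each marker of the 5 lists had UMIs in its class in every library. The cancer list holds epithelial markers such as keratins and Epcam. The study divided epithelial cells by copy number into cancer cells and pancreatic duct cells. No such division was made here, so that host epithelial cells, which lack the construct, may be among the cancer-gated cells. Although the labels call the samples pancreatic cancer cells, cancer-gated cells made up 13.3%, 24.5%, 23.5% and 15.2% of the cells kept, in OE-Vector 1 first and then in OE-MLKL 1, 2 and 3. The cancer gate cut through a continuous range of cells, since 265, 2461, 2029 and 457 cells in no gate held the cancer list at 0.5 to 1 times its share in free RNA. A gate at 0.5 times that share was therefore added after the data had been seen, and it left the number of members called unchanged in each of the 5 classes. Pairs of libraries shared 35 to 74 cell barcodes, at most 0.564% of the gated cells of the library that had fewer. Levels are given as CPM, the UMIs of a gene scaled to a common total over the class in that library.

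The results depend on annotated genes, whose places in the GRCm38 mouse genome were read from GENCODE vM21. Mlkl is at chr8:111311797-111338177, Ripk1 at chr13:34002363-34037147, Ripk3 at chr14:55784995-55788865, Zbp1 at chr2:173206612-173218923 and Fadd at chr7:144577318-144582463. Cflar at chr1:58711508-58758884 and Casp8 at chr1:58795374-58847503 are neighbours on the plus strand, 36490 bases apart with 0 protein-coding genes between them. Gm17084 overlaps Ripk1 and Gm37760 overlaps Casp8 on the same strand, so that reads in the overlaps cannot be assigned with certainty.

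RefSeq promoters (GRCm38.p6, 300 bases each, around the start of transcription) were found for 6 members, and none for Zbp1. They were searched on both strands for an interferon-stimulated response element (GAAA, any 2 bases, GAAA), a gamma-interferon activation site (TTC, any 3 bases, GAA) and an NF-kB site (GGGA, any 2 bases, TTCC), which were held by 3.44%, 8.30% and 1.47% of all 32851 promoters. Matches stood only in the second promoter of Ripk1 and in that of Cflar. The promoters of Ripk3 and Casp8, whose levels were most alike among the members, held none of these letters. These 4 promoters are shown as the 2 with a match and, beside them, those of the 2 members with the most alike levels. Capitals mark matches, and in Ripk1 the response element overlaps the second of the 2 activation sites.
Ripk1 second promoter, plus strand, chr13:34002624-34002923: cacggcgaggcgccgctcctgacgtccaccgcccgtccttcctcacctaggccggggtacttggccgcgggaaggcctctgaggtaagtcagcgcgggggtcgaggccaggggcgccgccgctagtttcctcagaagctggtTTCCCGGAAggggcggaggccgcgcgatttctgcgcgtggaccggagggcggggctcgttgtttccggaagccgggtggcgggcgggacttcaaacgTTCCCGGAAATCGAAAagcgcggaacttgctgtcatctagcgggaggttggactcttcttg
Cflar promoter, plus strand, chr1:58711241-58711540: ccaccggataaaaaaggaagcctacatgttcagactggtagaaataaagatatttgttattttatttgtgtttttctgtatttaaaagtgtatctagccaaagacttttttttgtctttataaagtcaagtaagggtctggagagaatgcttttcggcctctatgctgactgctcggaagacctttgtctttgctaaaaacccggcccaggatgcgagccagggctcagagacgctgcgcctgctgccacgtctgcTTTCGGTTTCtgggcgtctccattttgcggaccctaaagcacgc
Ripk3 promoter, minus strand, chr14:55788808-55789107: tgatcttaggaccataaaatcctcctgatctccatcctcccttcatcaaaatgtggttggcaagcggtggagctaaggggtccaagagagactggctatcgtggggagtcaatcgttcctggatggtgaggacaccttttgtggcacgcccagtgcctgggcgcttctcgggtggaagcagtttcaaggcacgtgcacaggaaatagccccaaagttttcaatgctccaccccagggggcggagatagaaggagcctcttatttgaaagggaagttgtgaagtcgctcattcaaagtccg
Casp8 promoter, plus strand, chr1:58802252-58802551: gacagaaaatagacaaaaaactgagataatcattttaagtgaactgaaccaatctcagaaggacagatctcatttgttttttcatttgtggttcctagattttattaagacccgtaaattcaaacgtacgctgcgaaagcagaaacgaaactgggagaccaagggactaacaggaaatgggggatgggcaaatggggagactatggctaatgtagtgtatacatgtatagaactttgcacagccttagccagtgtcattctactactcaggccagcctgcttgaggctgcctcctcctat

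The first question was in which of the 5 classes the machinery took the largest share of the UMIs. Every rank given here is among these 5 alone. Ranks by CPM are not ranks of the UMIs per cell, since depth differed between classes. In OE-Vector 1 the median was 24285 UMIs in cancer-gated and 1216 UMIs in neutrophil-gated cells. Mlkl, the executioner, was highest in cancer-gated cells, with a mean of 14.6 ± 4.78 CPM (SD, n = 4 libraries), and in macrophage-gated cells, with 10.3 ± 2.90 CPM. Dendritic cell-gated cells followed with 5.78 ± 1.11 CPM, T cell-gated cells with 5.69 ± 0.83 CPM and neutrophil-gated cells with 3.35 ± 1.27 CPM. These means, and the fits between classes, include the OE-MLKL libraries, whose injected cancer cells hold the Mlkl construct. In OE-Vector 1 alone, Mlkl was 16.2, 10.7, 6.03, 5.07 and 2.75 CPM in these classes in the same order. Ripk3, the kinase that activates MLKL, had a different order and a mean that was lowest in cancer-gated cells, at 1.51 ± 0.48 CPM against 17.0 ± 5.43 CPM in T cell-gated cells.

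Other cells of the tumours were not ranked or tested. The 23 to 51 endothelial-gated cells per library had 30.6, 13.9, 17.2 and 38.2 CPM of Mlkl in OE-Vector 1 and OE-MLKL 1, 2 and 3, on 17, 2, 8 and 15 UMIs, which is above the cancer-gated value of each library. They had 41.4, 13.9, 21.5 and 20.3 CPM of Ripk3 and 167.3, 90.1, 47.3 and 86.5 CPM of Casp8. The 77 to 215 fibroblast-gated cells per library had 17.3, 12.1, 12.4 and 17.9 CPM of Mlkl.

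Ripk3 in the 4 libraries, OE-Vector 1 first and then OE-MLKL 1, 2 and 3, was 2.20, 1.06, 1.43 and 1.36 CPM in cancer-gated cells. It was 23.7, 15.96, 17.8 and 10.5 CPM in T cell-gated cells and 18.5, 7.01, 13.6 and 11.1 CPM in macrophage-gated cells. Neutrophil-gated cells had 4.81, 1.02, 1.99 and 2.33 CPM and dendritic cell-gated cells 9.38, 3.59, 3.80 and 3.22 CPM. The cancer-gated value was the lowest of the 5 classes in each library but OE-MLKL 1, where the neutrophil-gated value, on 6 UMIs, was about the same. The log2 difference of cancer-gated minus T cell-gated cells was -3.55 (edgeR with a term for the library, adjusted p = 5.3e-10), and that of cancer-gated minus macrophage-gated cells -3.28 (adjusted p = 5.0e-10). T cell-gated minus macrophage-gated cells gave 0.27 ± 0.22 in the same fit (SE, adjusted p = 0.32). In OE-MLKL 3 the macrophage-gated value was the higher of the 2. Free RNA held 9.41, 3.001, 4.93 and 7.24 CPM of Ripk3, more than the cancer-gated cells of the same library in all 4. Free RNA was estimated from S100a8 and S100a9 to give 5.48% to 8.76% of the UMIs of cancer-gated cells, which amounts to 0.617, 0.164, 0.431 and 0.587 CPM of Ripk3. The measured values stood above these amounts in each library. Cancer-gated cells were also lower than neutrophil-gated cells, by a fitted log2 difference of -1.16 ± 0.25 (SE, adjusted p = 0.00042). Dendritic cell-gated minus neutrophil-gated cells gave 0.61 ± 0.36 (SE, adjusted p = 0.15), and this value depended on the processing. It was 0.96 and called with library-size scaling (adjusted p = 0.019), 0.91 and called with the added gate (adjusted p = 0.038), and -0.053 with a gate of 2 distinct markers.

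**Figure D1:**
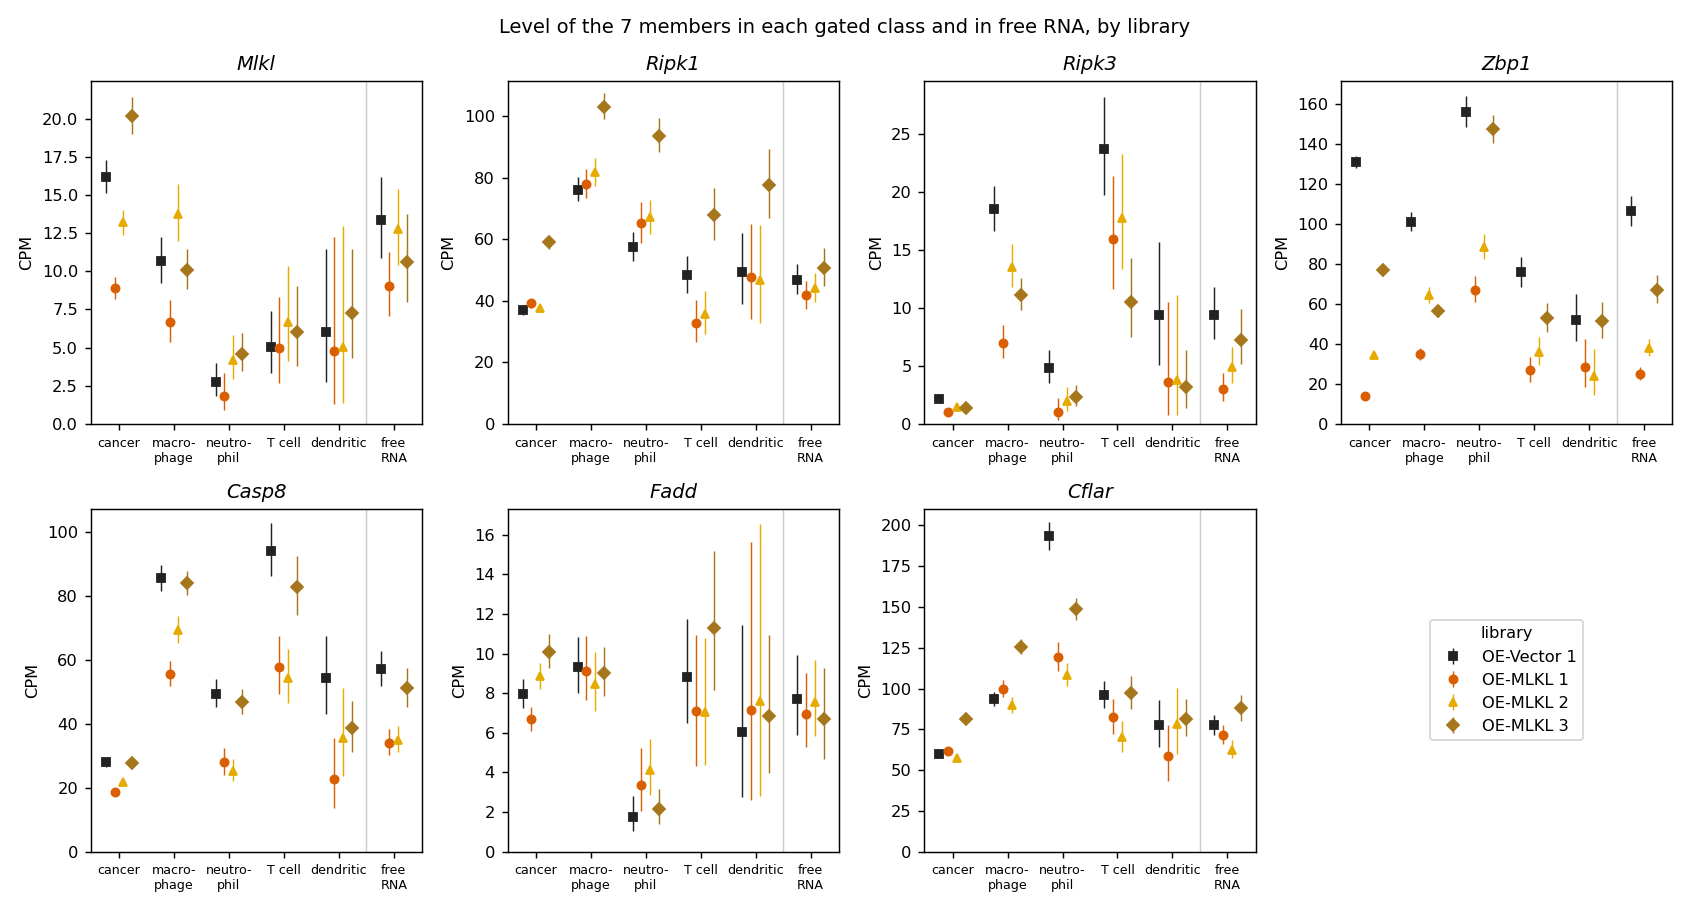
Level of each member in CPM (vertical axis, from 0) in the 5 gated classes and in free RNA (horizontal axis). Each point is 1 library, and the bars are 95% Poisson intervals for counting error only. Ripk3 lies between 1.06 and 2.20 CPM in cancer-gated cells and between 10.5 and 23.7 CPM in T cell-gated cells.

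Mlkl did not differ between cancer-gated and macrophage-gated cells beyond the spread of the libraries, with a log2 difference of 0.24 ± 0.16 (SE, adjusted p = 0.21), whereas scaling by library size alone gave 0.50 and a call (adjusted p = 0.016). It was higher in macrophage-gated than in dendritic cell-gated cells, by 0.96 ± 0.25 (SE, adjusted p = 0.0051), a call that was lost with a gate of 2 distinct markers and with cells past several gates kept. Dendritic cell-gated and T cell-gated cells did not differ detectably, at 0.09 ± 0.28 (SE, adjusted p = 0.83), although with a gate of 2 distinct markers the difference was 0.77 and was called. In neutrophil-gated cells Mlkl read 2.75, 1.86, 4.22 and 4.58 CPM. The cancer marker list, taken as a measure of free RNA, would give 2.02, 2.41, 2.88 and 2.44 CPM of Mlkl in these cells. The measured value was below this amount in OE-MLKL 1 and above it in the other 3 libraries. The T cell-gated values of 5.07, 4.97, 6.71 and 6.03 CPM were higher than the neutrophil-gated ones in all 4 libraries, but the scaled log2 difference was 0.40 ± 0.22 (SE, adjusted p = 0.17). With scaling by library size alone it was 0.77 and passed the threshold, as it did with the stricter gate and with cells past several gates kept.

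Ripk1, the kinase that joins death receptors to both apoptosis and necroptosis, was highest in macrophage-gated cells at 84.9 ± 12.4 CPM (SD, n = 4) and in neutrophil-gated cells at 71.0 ± 15.7 CPM. These 2 classes did not differ beyond the spread (log2 difference 0.13 ± 0.11, SE, adjusted p = 0.30). Ripk1 was lower in dendritic cell-gated cells, at 55.5 ± 14.8 CPM, than in neutrophil-gated cells (adjusted p = 0.00011). T cell-gated cells had 46.3 ± 15.9 CPM and cancer-gated cells 43.3 ± 10.5 CPM, and the steps from dendritic cell-gated to T cell-gated and from T cell-gated to cancer-gated cells did not pass the test, at adjusted p = 0.058 and 0.23. The first was called without OE-Vector 1 (0.46, adjusted p = 0.019) and with the added gate (0.37, adjusted p = 0.030), and the second with DESeq2 (0.26, adjusted p = 0.029). Across both steps, Ripk1 was lower in cancer-gated than in dendritic cell-gated cells, with a log2 difference of -0.46 ± 0.12 (SE, adjusted p = 0.0042).

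Zbp1, a sensor of Z-form nucleic acids that is induced by interferon, was highest in neutrophil-gated cells at 114.9 ± 43.7 CPM (SD, n = 4). It exceeded the 64.2 ± 27.7 CPM of macrophage-gated cells by 0.98 ± 0.24 on the log2 scale (SE, adjusted p = 0.0017), a call that was lost without a term for the library. Macrophage-gated, cancer-gated, T cell-gated and dendritic cell-gated cells, at 64.2 ± 27.7, 64.2 ± 51.8, 47.9 ± 21.5 and 39.1 ± 14.8 CPM, did not differ between neighbours in that order, with adjusted p of 0.054, 0.72 and 0.54. The first of these steps was called under 5 of the alternatives, with log2 differences of 0.55 to 0.80. The SD of 51.8 in cancer-gated cells was the widest of the 5 and reflects values from 13.9 to 131.2 CPM, which are taken up below.

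Of the genes that restrain necroptosis, Casp8, the initiator caspase of death receptors, was highest in macrophage-gated cells at 73.6 ± 14.02 CPM (SD, n = 4) and in T cell-gated cells at 72.3 ± 19.3 CPM, with no call between them except under 2 other gates. It was lower in dendritic cell-gated cells at 37.8 ± 12.97 CPM, by 0.92 ± 0.17 on the log2 scale from T cell-gated cells (SE, adjusted p = 0.00023). Neutrophil-gated cells had 37.3 ± 12.4 CPM, and dendritic cell-gated minus neutrophil-gated cells gave a log2 difference of -0.30 ± 0.16 (SE, adjusted p = 0.12). It was 0.021 with library-size scaling, and under 3 other gates it was -0.59, -0.53 and -0.56 and was called (adjusted p = 0.0066, 0.0084 and 0.0082). Cancer-gated cells had the least Casp8, 24.1 ± 4.53 CPM, lower than neutrophil-gated cells by 1.01 ± 0.14 (SE, adjusted p = 3.6e-06).

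Cflar, whose product binds caspase-8 and keeps it from full activation, was highest in neutrophil-gated cells at 142.5 ± 38.1 CPM (SD, n = 4). Macrophage-gated cells followed with 102.3 ± 16.04 CPM, lower by 0.63 ± 0.16 on the log2 scale (SE, adjusted p = 0.0019). T cell-gated cells had 86.4 ± 12.8 CPM, dendritic cell-gated cells 74.1 ± 10.5 CPM and cancer-gated cells 65.0 ± 10.97 CPM. The step from macrophage-gated to T cell-gated cells passed the test at adjusted p = 0.027 but not under several other settings, and the last 2 steps did not pass. The last of them, from dendritic cell-gated to cancer-gated cells, was 0.28 on the log2 scale, and 0.44 with a call under the added gate (adjusted p = 0.040).

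Fadd, the adaptor between death receptors and caspase-8, had close mean levels in macrophage-gated, T cell-gated, cancer-gated and dendritic cell-gated cells, at 8.99 ± 0.37, 8.56 ± 1.99, 8.40 ± 1.44 and 6.91 ± 0.66 CPM (SD, n = 4). No neighbours in this order differed detectably, with adjusted p of 0.28, 0.60 and 0.52. Neutrophil-gated cells had less, 2.86 ± 1.08 CPM, lower than dendritic cell-gated cells by 0.99 ± 0.27 on the log2 scale (SE, adjusted p = 0.0041). This call was lost without OE-MLKL 3, at 0.77 with adjusted p = 0.079. Their Fadd rested on 18 to 35 UMIs per library, and free RNA would give 1.17, 1.87, 1.71 and 1.54 CPM of the 1.77, 3.39, 4.10 and 2.16 CPM measured.

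Over the 10 pairs of classes, 47 of the 70 differences of members passed the test. Differences between cell types are common among all genes, and the counts of members must be read against that. Between cancer-gated and macrophage-gated cells 4 of 7 members differed against 66.2% of all genes tested, all 4 lower in cancer-gated cells. Between cancer-gated and neutrophil-gated cells 7 of 7 differed against 79% of genes, with Mlkl and Fadd higher in cancer-gated cells. Cancer-gated and T cell-gated cells differed in 4 of 7 members against 62.9% of genes, and cancer-gated and dendritic cell-gated cells in 4 of 7 against 47% of genes. Mlkl was the 1 member higher in cancer-gated cells in each of these 2 pairs.

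Among immune classes, macrophage-gated and neutrophil-gated cells differed in 6 of 7 members against 64.8% of genes. Macrophage-gated cells exceeded T cell-gated cells in 4 of 7 members against 55.8% of genes that differed in either direction, and dendritic cell-gated cells in 6 of 7 against 38.8%. Neutrophil-gated and T cell-gated cells differed in 6 of 7 members against 67% of genes, neutrophil-gated and dendritic cell-gated cells in 4 of 7 against 59.8%, and T cell-gated and dendritic cell-gated cells in 2 of 7 against 41.9%.

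**Figure D2:**
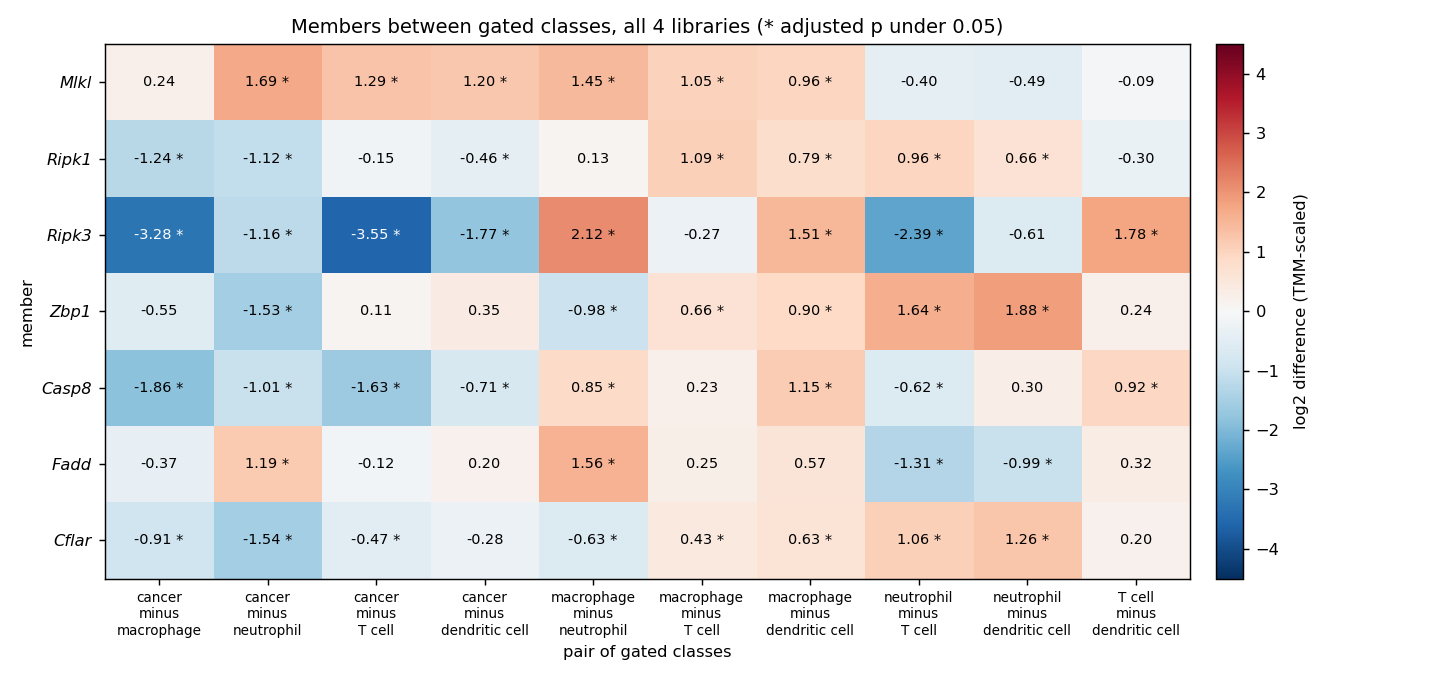
Log2 difference of each member (vertical axis) for each pair of gated classes (horizontal axis), first class minus second, from the edgeR fit over 4 libraries with TMM scaling. Stars mark adjusted p under 0.05, and the Ripk3 cells of cancer minus macrophage and cancer minus T cell hold -3.28 and -3.55.

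The levels of members over the 20 sums of a library and a class were also compared with each other, as a description only, because the sums share libraries, depth and cell types. Ripk3 and Casp8 were most alike, with a Pearson r of 0.89 of log2(CPM + 1). Mlkl and Fadd followed with 0.67, and Ripk1 and Cflar with 0.65. Mlkl and Ripk3 gave -0.0024 over these sums, which mix differences between classes with those between libraries. Whether the executioner and the kinase that activates it varied together within a class was not tested. Mlkl and Cflar had an r of -0.51. Of 9138 genes with a mean of at least 10 CPM, those with the highest r to Mlkl were Pgap1 (0.90), Fam126a (0.89), Cnpy4 (0.89), Canx (0.88) and St13 (0.87). Canx encodes calnexin, a chaperone of the endoplasmic reticulum, and St13 a cochaperone of heat shock proteins.

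The second question was whether the libraries labelled OE-MLKL differed from the one labelled OE-Vector. A single OE-Vector tumour stood against 3 OE-MLKL tumours, so that the groups cannot be told apart from that tumour, and the test assumes that it varies like the others. Classes of one library come from the same tumour and are not independent of each other. In bulk sums such as these, fewer cells that transcribe a gene and less RNA per cell cannot be told apart.

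Mlkl in cancer-gated cells was 16.2 CPM in OE-Vector 1 (95% Poisson interval 15.1 to 17.3) and 8.88, 13.2 and 20.2 CPM in OE-MLKL 1, 2 and 3. OE-MLKL 3 was higher than OE-Vector 1, and OE-MLKL 1 and 2 were lower. The fitted log2 difference, OE-MLKL minus OE-Vector, was -0.34 ± 0.39 (SE, adjusted p = 1.0). In macrophage-gated cells the values were 10.7 CPM against 6.66, 13.7 and 10.1 CPM, again overlapping, and the log2 difference was -0.21 ± 0.43 (SE, adjusted p = 0.95). The neutrophil-gated and T cell-gated differences of 0.11 ± 0.66 and 0.15 ± 0.55 (SE, adjusted p = 0.96 and 1.0) had the opposite sign and were smaller than their errors. In dendritic cell-gated cells Mlkl rested on 9, 4, 4 and 18 UMIs and was not tested.

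Because the construct was placed in the cancer cells, the Mlkl difference in cancer-gated cells was also set against the mean difference of the 4 immune classes. It was -0.24 ± 0.34 on the log2 scale (SE, adjusted p = 0.90 in edgeR), so that no excess of Mlkl particular to the cancer-gated cells was detected. This fit called 0% of 14382 genes and 0 of 7 members. Zbp1, at -0.96 ± 0.39, and Cflar, at 0.44 ± 0.19, had an unadjusted p under 0.05, with edgeR, DESeq2 and limma-voom alike, and none of these tools called a member. Without OE-MLKL 3 the Zbp1 value was -1.35 and was called (adjusted p = 0.014).

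Mlkl was also counted in single cells. Cancer-gated cells with 5 or more Mlkl UMIs numbered 10 of 2039 in OE-Vector 1, 0 of 4532 and 0 of 5415 in OE-MLKL 1 and 2, and 10 of 2672 in OE-MLKL 3. For these 2 libraries a count of 0 allows a share of up to 0.0662% and 0.0554%, in those libraries and at their depth. They were the shallowest of the 4, so that their counts cannot be told apart from depth. The share of cancer-gated cells with any Mlkl UMI was 30.9%, 11.7%, 16.1% and 27.6% in the 4 libraries in that order. The median depths of cancer-gated cells were 24285, 12719.5, 12379 and 19348 UMIs. After every cell had been thinned to 500 UMIs, the share was 0.740%, 0.414%, 0.601% and 0.970%, against 0.128%, 0.0715%, 0.139% and 0.230% in neutrophil-gated cells, whose median depths were 1216, 757, 794 and 1421 UMIs. The highest thinned share in cancer-gated cells was that of OE-MLKL 3 and the lowest that of OE-MLKL 1.

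Over the 7 members, edgeR called none between OE-MLKL and OE-Vector in any class. The test also called almost nothing else, namely 0.00604% of genes in cancer-gated, 0% in macrophage-gated, 0% in neutrophil-gated, 0.0166% in T cell-gated and 0% in dendritic cell-gated cells. Unadjusted p under 0.05 was found for 1 member in cancer-gated cells (Zbp1), 2 in macrophage-gated cells (Ripk3 and Zbp1), 2 in neutrophil-gated cells (Ripk3 and Cflar), 1 in T cell-gated cells (Zbp1) and 0 of the 5 tested in dendritic cell-gated cells. Over all genes it was found for 632 to 1149 per class. DESeq2 and limma-voom called no member either, while DESeq2 called 7 to 83 genes per class and limma-voom at most 1. The median log2 difference of the members tested was -0.34, -0.21, -0.84, -0.28 and -0.66 in cancer-gated, macrophage-gated, neutrophil-gated, T cell-gated and dendritic cell-gated cells, beside 0.03, 0.05, 0.06, 0.03 and 0.05 for all genes tested.

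**Figure D3:**
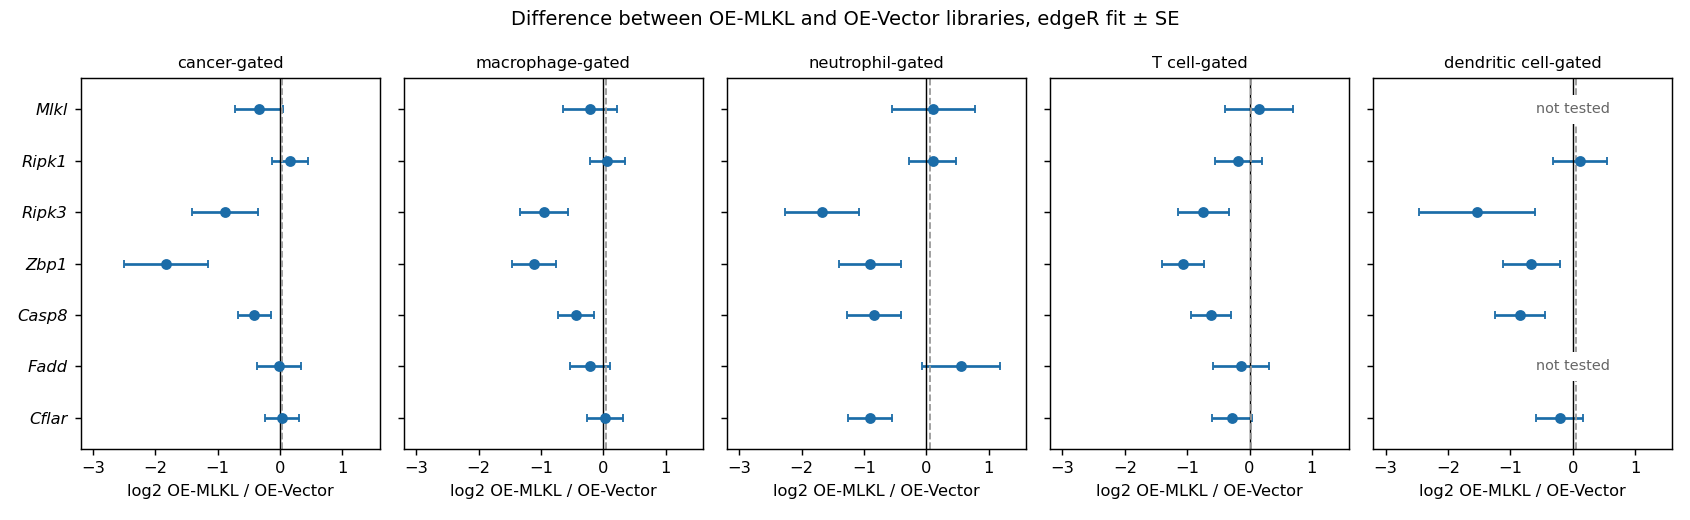
Log2 difference of OE-MLKL over OE-Vector (horizontal axis) for each member (vertical axis) in the 5 gated classes, from the edgeR fit of 1 against 3 libraries. Bars are SE and the dashed line is the median of all genes tested. Ripk3, Zbp1 and Casp8 lie below 0 in all 5 classes, from -0.42 to -1.83, and none has an adjusted p under 0.05.

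Although no call was made, Ripk3, Zbp1 and Casp8 were highest in OE-Vector 1 in every class. With Fadd in macrophage-gated cells and Cflar in neutrophil-gated cells, OE-Vector 1 stood above each OE-MLKL library for 3 of 7 members in cancer-gated cells against 16.8% of genes tested, 4 of 7 in macrophage-gated cells against 16.6%, 4 of 7 in neutrophil-gated cells against 15.8%, 3 of 7 in T cell-gated cells against 17.2% and 3 of the 5 tested in dendritic cell-gated cells against 18.2%. OE-Vector 1 stood below each OE-MLKL library for Ripk1 in cancer-gated cells, where 31.9% of genes did so, for Ripk1 in macrophage-gated cells (37.9% of genes) and for Ripk1 and Fadd in neutrophil-gated cells (46.6%). In T cell-gated cells there was none (29.2%). In dendritic cell-gated cells there was none among the 5 tested (33.6%), and Fadd, which was not tested there, also stood in this position. These positions rest on CPM, and the 5 classes repeat the same tumour. The members were chosen with earlier results of these data known, so that these counts are no independent test. Fadd in macrophage-gated cells was 9.33 CPM in OE-Vector 1 against 9.14, 8.47 and 9.03 CPM, with overlapping counting intervals.

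Zbp1 had the largest fitted difference of the members in cancer-gated, macrophage-gated and T cell-gated cells, and Ripk3 in neutrophil-gated and dendritic cell-gated cells. In cancer-gated cells Zbp1 was 131.2 CPM in OE-Vector 1 and 13.9, 34.5 and 77.2 CPM in OE-MLKL 1, 2 and 3. The OE-MLKL libraries themselves differed more than the nearest of them differed from OE-Vector 1. The log2 difference was -1.83 ± 0.67 (SE, adjusted p = 1.0). Over the alternatives it ran from -2.45, without OE-MLKL 3, to -1.44. It was called only without OE-MLKL 3, in a fit that called many more genes of all kinds than the others.

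In macrophage-gated cells Zbp1 read 101.3 CPM in OE-Vector 1 against 34.9, 64.3 and 56.4 CPM, a log2 difference of -1.11 ± 0.35 (SE, adjusted p = 0.84). In T cell-gated cells it read 75.9 CPM against 27.0, 35.9 and 53.0 CPM, a difference of -1.06 ± 0.34 (SE, adjusted p = 0.88). Neutrophil-gated cells had 156.2 CPM against 67.3, 88.6 and 147.6 CPM, and dendritic cell-gated cells 52.2 CPM against 28.7, 24.1 and 51.5 CPM. In these last 2 classes OE-MLKL 3 was close to OE-Vector 1, and OE-MLKL 1 and 2 lay well below both. Median depths in OE-Vector 1 and OE-MLKL 1, 2 and 3 were 1216, 757, 794 and 1421 UMIs in neutrophil-gated cells. They were 9290, 6360, 5765 and 9253 UMIs in dendritic cell-gated cells, and the part of depth was not tested. Without OE-MLKL 3 the T cell-gated Zbp1 difference was -1.27 and the neutrophil-gated one -1.33, and both were called. Neither was called without OE-MLKL 1 or without OE-MLKL 2. The fits without OE-MLKL 3 called many more genes in every class than any other setting. The Casp8 and Cflar calls given below came from those same fits. Free RNA of the same libraries held 106.5, 25.1, 38.2 and 67.1 CPM of Zbp1, in the same order as the cancer-gated cells.

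Ripk3 in macrophage-gated cells was 18.5 CPM in OE-Vector 1 against 7.01, 13.6 and 11.1 CPM, a log2 difference of -0.95 ± 0.38 (SE, adjusted p = 0.84). In T cell-gated cells, which had the highest mean of the 5 classes but no call over macrophage-gated cells, it was 23.7 CPM against 15.96, 17.8 and 10.5 CPM. The difference was -0.74 ± 0.41 (SE) and was not called. In cancer-gated cells the difference was -0.88 ± 0.53 (SE, adjusted p = 1.0) on 123, 72, 111 and 73 UMIs. The neutrophil-gated value of -1.67 ± 0.60 (SE, adjusted p = 0.58) rested on 49, 6, 17 and 28 UMIs. Free RNA would give 1.42, 0.804, 1.12 and 1.67 CPM of the 4.81, 1.02, 1.99 and 2.33 CPM measured there, and its part in the difference was not tested. The dendritic cell-gated value of -1.53 ± 0.93 (SE, adjusted p = 0.86) rested on 14, 3, 3 and 8 UMIs.

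Casp8 in cancer-gated cells was 28.0 CPM in OE-Vector 1 against 18.8, 21.9 and 27.7 CPM, a log2 difference of -0.42 ± 0.26 (SE, adjusted p = 1.0). OE-MLKL 3 was again close to OE-Vector 1, and their counting intervals overlapped. Neutrophil-gated cells had 49.4 CPM against 28.0, 25.3 and 46.7 CPM, a difference of -0.84 ± 0.43 (SE, adjusted p = 0.60), which was -1.22 with adjusted p = 0.021 without OE-MLKL 3. T cell-gated cells had 94.1 CPM against 57.8, 54.4 and 82.8 CPM, a difference of -0.62 ± 0.32 (SE, adjusted p = 0.95), which was -0.74 with adjusted p = 0.036 without OE-MLKL 3. Macrophage-gated cells had 85.5 CPM against 55.6, 69.4 and 83.9 CPM (log2 difference -0.44 ± 0.29, SE, adjusted p = 0.86). In dendritic cell-gated cells Casp8 was 54.3 CPM against 22.7, 35.4 and 38.6 CPM, with counting intervals of OE-MLKL 2 and 3 that overlapped that of OE-Vector 1, and the difference was -0.85 ± 0.40 (SE, adjusted p = 0.82).

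Cflar in neutrophil-gated cells was 193.6 CPM in OE-Vector 1 against 119.3, 108.5 and 148.7 CPM. The log2 difference was -0.91 ± 0.35 (SE, adjusted p = 0.58), and -1.09 with adjusted p = 0.029 without OE-MLKL 3. In cancer-gated cells Cflar was 60.03 CPM against 61.5, 57.3 and 81.3 CPM, with a difference of 0.03 ± 0.27 (SE, adjusted p = 1.0). Ripk1 was 37.2 CPM against 39.2, 37.7 and 59.0 CPM in cancer-gated cells, a difference of 0.16 ± 0.29 (SE, adjusted p = 1.0), and OE-MLKL 3 alone stood out. Ripk1 was also highest in OE-MLKL 3 in the other 4 classes. Fadd in cancer-gated cells was 7.96 CPM against 6.68, 8.85 and 10.1 CPM, and its sign changed with the gate and the scaling.

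The wider pathway was examined through lists of other genes, which were chosen with earlier results of these data known. Of 11 death receptors, ligands and their kin, 19 genes of the receptor complexes and their ubiquitin enzymes, 17 regulators and membrane repair genes and 10 genes of caspases and mitochondrial apoptosis, edgeR called 0 higher and 0 lower in each class, counting those with enough reads to be tested. Ifngr1, the ligand-binding chain of the interferon gamma receptor, had 213.6 CPM in cancer-gated cells of OE-Vector 1 against 61.3, 41.9 and 106.3 CPM, and a log2 difference of -1.76 ± 0.41 (SE, adjusted p = 1.0). It was called by DESeq2, and by edgeR without OE-MLKL 3. Ikbke, a kinase that can phosphorylate RIPK1, had 79.5 CPM in neutrophil-gated cells against 8.64, 13.6 and 18.1 CPM (log2 difference -2.83 ± 0.42, SE, adjusted p = 0.58), and was called by DESeq2 and by edgeR without any 1 of the OE-MLKL libraries. Il1a, a cytokine that dying cells release, had 100.3 CPM there against 5.08, 10.7 and 25.5 CPM (log2 difference -3.11 ± 0.73, SE, adjusted p = 0.58), and was called by DESeq2 and by edgeR without OE-MLKL 1 and without OE-MLKL 3. Of the death receptor and ligand list, 10 of 11 genes tested in cancer-gated, 6 of 10 in macrophage-gated, 9 of 10 in neutrophil-gated, 8 of 9 in T cell-gated and 2 of 7 in dendritic cell-gated cells were lower by sign, with median log2 differences of -0.63, -0.14, -0.72, -0.29 and 0.16. Over all genes tested, 47.4%, 45.5%, 45.9%, 47.4% and 46.5% were lower by sign in these classes. Of the receptor complex list, 9 of 19, 8 of 19, 13 of 19, 15 of 19 and 9 of 18 were lower. Its medians were 0.04, 0.03, -0.28, -0.12 and 0.005. Of the regulator list, 7, 9, 9 and 9 of 17 and 7 of 16 were lower. Its medians were 0.05, -0.11, -0.11, -0.005 and 0.03. Of the caspase list, 7, 4, 7, 8 and 7 of 10 were lower. Its medians were -0.16, 0.08, -0.52, -0.21 and -0.09. Ifngr1, Ikbke and Il1a were singled out after their values had been seen.

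The last list held interferon-induced genes and was also chosen with earlier results of these data known. All 14 of those tested were lower in the OE-MLKL libraries by sign in cancer-gated, macrophage-gated and neutrophil-gated cells, 13 in T cell-gated and 12 in dendritic cell-gated cells, where 45.5% to 47.4% of all genes tested were so. The median log2 differences were -1.24, -1.20, -1.35, -0.87 and -0.81. No gene of the list was called by edgeR or limma-voom with all 4 libraries and the filter on low counts. Without OE-MLKL 3, edgeR called 12 of 14 lower in cancer-gated, 4 of 14 in macrophage-gated, 12 of 14 in neutrophil-gated, 8 of 13 in T cell-gated and 4 of 12 in dendritic cell-gated cells. In the same fits it called lower 559 of all 16012 genes tested, 231 of 13689, 1018 of 13141, 537 of 11533 and 420 of 9276. Without OE-MLKL 1 it called 1, 3, 5, 1 and 1, without OE-MLKL 2 it called 1 in T cell-gated cells, and without the filter 2 in macrophage-gated cells (Isg15 and Irf7) and 1 in T cell-gated cells (Isg15). With all libraries, an unadjusted p under 0.05 was found for 8, 9, 6, 7 and 2 of the list in that order of classes, beside 718 of all 16560 genes tested, 800 of 14147, 1149 of 13545, 638 of 12036 and 632 of 10331, and DESeq2 called 2, 3, 1, 0 and 0. The summed level of the list in cancer-gated cells was 1344 CPM in OE-Vector 1 against 334.0, 523.8 and 1140 CPM in OE-MLKL 1, 2 and 3. The order of libraries was that of Zbp1 there and in the neutrophil-gated, T cell-gated and dendritic cell-gated cells. In macrophage-gated cells it was not, since the list summed to 836.0 CPM in OE-MLKL 2 and 1089 CPM in OE-MLKL 3, whereas Zbp1 was 64.3 and 56.4 CPM. In neutrophil-gated cells the sum was 4344 CPM against 765.3, 1315 and 3230 CPM, and OE-MLKL 3 was again between OE-Vector 1 and the other 2 libraries. The part of interferon-induced transcription in the Zbp1 difference was not tested.

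**Figure D4:**
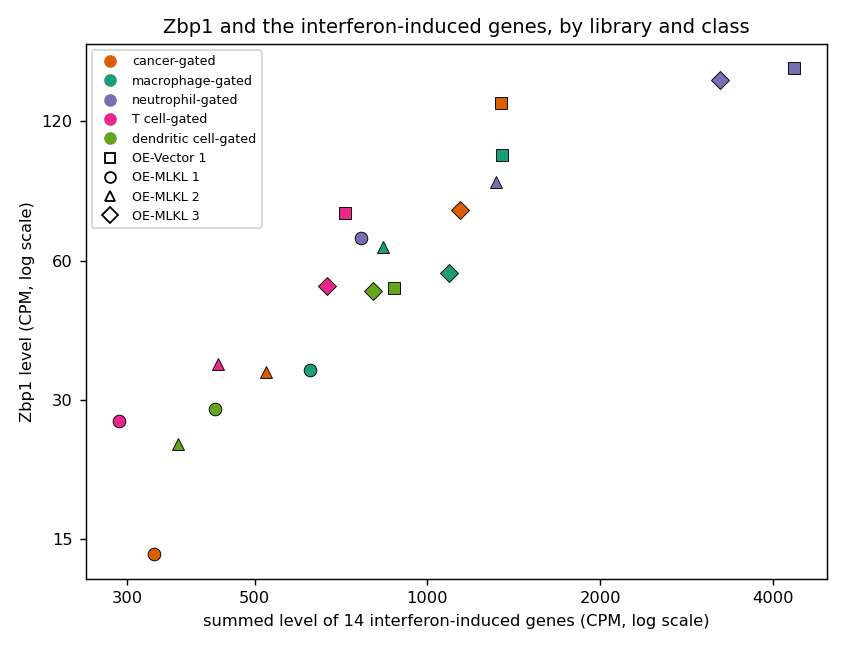
Zbp1 level (vertical axis, CPM) against the summed level of 14 interferon-induced genes (horizontal axis, CPM), both on log scales. Each point is 1 gated class (colour) in 1 library (shape), so that points share tumours and are not independent. In cancer-gated cells the points run from 13.9 CPM of Zbp1 in OE-MLKL 1 to 131.2 CPM in OE-Vector 1.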

How the data were processed

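Tumours were profiled by 10x Genomics 3′ single-cell RNA-seq. The authors deposited UMI counts per gene and barcode, not normalized. The file headers name Cell Ranger 7.1.0, and the submitters' processing notes name 2.1.1 and mm10. The study's methods name a version that differs from both. Intron counting and the counting strand are not given in the sources used here. Cells were kept at 500 or more UMIs, over 200 genes, under 10% mitochondrial and at most 5% haemoglobin UMIs, and cells past several gates were left out. Doublets were scored but kept, and their removal was an alternative. Counts were summed per library and class.

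OE-MLKL was compared with OE-Vector by the quasi-likelihood test of edgeR 4.0.16 (R 4.3.3) with TMM scaling and a filter on low counts, and classes were compared in a fit with a term for the library. P-values were two-sided and adjusted by Benjamini-Hochberg over all genes tested, and a call means adjusted p under 0.05. DESeq2 1.42.0 and limma-voom (limma 3.58.1) were alternatives, besides other scalings, filters and gates and leaving out each library. The fits were tested on simulated data. Intervals and limits of counts of 0 cover counting error only. The study harvested 3 tumours per group for sequencing, so that libraries of a group are separate tumours. The members and lists were chosen with earlier results of these data known. Named genes were the 7 members, genes of the lists that were called (at most 5 per class), and the 5 genes with the highest Pearson r to Mlkl among those with a mean of at least 10 CPM. Genes named beyond this rule are marked as such.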

Additional observations from a re-analysis of the deposited data

Results flagged for a closer look

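Fadd was flagged because OE-Vector 1 stood on opposite sides of the OE-MLKL libraries in different classes. The log2 ratio of the mean OE-MLKL level to that of OE-Vector 1 was higher by 0.94 in neutrophil-gated than in macrophage-gated cells, and higher by 0.33 in dendritic cell-gated than in macrophage-gated cells. OE-Vector 1 was below each OE-MLKL library in the neutrophil-gated and dendritic cell-gated cells and above each in the macrophage-gated cells. The macrophage-gated values were close, at 9.33 CPM against 9.14, 8.47 and 9.03 CPM. Counting intervals of OE-Vector 1 overlapped those of every OE-MLKL library in macrophage-gated and dendritic cell-gated cells. In neutrophil-gated cells they overlapped those of OE-MLKL 1 and 3. The difference between classes was not tested, and Fadd rested on 18 to 35 UMIs per library in neutrophil-gated cells and 6 to 17 in dendritic cell-gated cells.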

How the results depend on the processing

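No paired analysis was possible because only 1 OE-Vector library was analysed, so that the groups share 1 replicate number. Of 460 member values for OE-MLKL over OE-Vector under the alternatives, 435 kept their direction and side of the threshold, 6 were newly called and 19 changed sign. For the 28 steps between neighbours in the order of classes these were 403, 22 and 11 of 448, and 12 lost their call. The number of members called ranged from 0 to 1 in cancer-gated, 0 to 3 in neutrophil-gated and 0 to 2 in T cell-gated cells when a library was left out, and the highest numbers came without OE-MLKL 3. Without OE-MLKL 3, edgeR called 798, 454, 1520, 1004 and 809 genes in cancer-gated, macrophage-gated, neutrophil-gated, T cell-gated and dendritic cell-gated cells. Without OE-MLKL 1 it called 107, 33, 169, 45 and 44, and without OE-MLKL 2 it called 21, 5, 14, 36 and 23. DESeq2 called 79, 62, 83, 7 and 9. Without the filter on low counts 1, 11, 4, 135 and 1 were called, and without doublets 1, 4, 0, 5 and 0. Library-size scaling moved the median log2 difference of all genes from 0.06 to 0.35 in neutrophil-gated cells and from 0.05 to 0.19 in macrophage-gated cells.

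The cause of the changes of sign was not tested. Leaving out 1 library at a time gave OE-MLKL over OE-Vector values of -0.074 to 0.092 for Fadd and -0.027 to 0.11 for Cflar in cancer-gated cells. In macrophage-gated cells it gave -0.48 to 0.0032 for Mlkl, -0.050 to 0.12 for Ripk1 and -0.098 to 0.13 for Cflar. In neutrophil-gated cells it gave -0.14 to 0.42 for Mlkl and -0.13 to 0.23 for Ripk1, and in dendritic cell-gated cells -0.16 to 0.21 for Ripk1. For cancer minus immune classes Fadd ran from -0.19 to 0.080, for dendritic minus T cells Mlkl from -0.084 to 0.20 and for cancer minus T cells Zbp1 from -0.13 to 0.39. Fadd in cancer-gated cells became 0.10 with library-size scaling, 0.026 with 2 distinct markers, 0.035 with the gate at 1.5 times free RNA and 0.040 with mixed cells kept. Mlkl in neutrophil-gated cells became -0.00057 with 2 distinct markers, and in T cell-gated cells -0.032 with the stricter gate and -0.041 with mixed cells kept. Ripk1 in dendritic cell-gated cells became -0.15 with 2 distinct markers and -0.026 with mixed cells kept, and Cflar there 0.0042 with the added gate. Between classes, Ripk1 of macrophages minus neutrophils became -0.0020 with DESeq2, Ripk1 of T minus cancer cells -0.021 and Fadd of the same pair -0.056 without the filter. With mixed cells kept, Fadd of that pair was -0.0028 and Ripk3 of T cells minus macrophages -0.0093. Ripk3 of dendritic cells minus neutrophils went from 0.61 to -0.053 with 2 distinct markers, Casp8 of the same pair 0.021 with library-size scaling and Zbp1 of T minus dendritic cells -0.038 with the added gate. Mlkl and Fadd did not pass the filter on low counts in dendritic cell-gated cells, which numbered 90 to 234 per library, and were not tested there.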
